A study of Mus musculus with 8 samples.

Results

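Transcript levels of 10 genes of blood vessels were followed in frozen prostate tissue of 8 male NOD mice: the endothelial genes Pecam1, Cdh5, Kdr, Flt1, Flt4, Tek and Vwf, and the genes Vegfa, Vegfc and Pgf, which encode ligands of the vascular endothelial growth factor (VEGF) receptors. These 10 were taken from the 54532 genes of the count table by matching Ensembl identifiers to GENCODE M21 symbols. All 10 had enough counts to be tested, as had 15472 genes in all. NOD (NOD/ShiLtJ) is an inbred strain with spontaneous autoimmune disease, and all 8 mice carry this background without any added allele. The study pooled diabetic and non-diabetic animals, and the sample labels do not give the status of a mouse. The control group (mice 1, 3, 65 and 69) received PBS, and the etanercept-treated group (mice 17, 19, 50 and 52) received etanercept, a soluble TNF receptor fusion protein that binds TNF, at 4 mg/kg. Both groups were injected 2 times per week over 5 weeks, from an age of 25 weeks, and tissues were taken at 30 weeks. The comparison asks whether blockade of TNF changed gene expression in the inflamed prostate, here for its vessels.

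Endothelial cells line blood and lymphatic vessels. VEGF-A, made by epithelial, stromal and immune cells, acts on the receptors VEGFR2 (Kdr) and VEGFR1 (Flt1) of blood vessels, PlGF (Pgf) binds VEGFR1, and VEGF-C acts mainly on VEGFR3 (Flt4), which in adults is best known from lymphatic vessels. TNF is a classical activator of endothelium, which responds to it with leukocyte adhesion molecules. The prostate holds a capillary network under its epithelium, and its vasculature is known to depend on androgens through VEGF.

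No difference in the 10 genes was large compared with the spread between mice. Of the 10 genes, 0 passed an adjusted p of 0.05 in edgeR's quasi-likelihood test, where 0% of all tested genes did. At an unadjusted p of 0.05 the count was also 0 of 10, against 6.62% of all tested genes. DESeq2 gave 0 of 10 after adjustment, against 0.113% of its genes, and 1 of 10 (Flt1) before it, against 5.84%. The groups overlapped in 10 of 10 genes. Over all tested genes, 2.41% had every etanercept-treated mouse above every control mouse and 2.53% had every one below. The 7 endothelial genes had lower mean levels in the etanercept-treated group and negative log2 fold changes (etanercept against control) with a median of −0.71, while 51% of all tested genes had negative ones and the median of all was −0.0099. This shared direction depended on control 3. Without that mouse 5 of 7 were negative and their median was −0.054. In bulk tissue, fewer endothelial cells, less RNA per endothelial cell and a different mix of tissues in a library cannot be told apart.

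The genome sequence at the starts of the 3 VEGF receptor genes and of Vegfa is shown because the ligand to receptor ratios below turn on these receptors and on Vegfa, the most abundant of the 3 ligands. Each window holds 300 bases, from 250 before to 50 after the RefSeq start (GRCm38.p6), on the strand of the gene. The windows are chr5:75978406-75978705 (minus strand) for Kdr, chr5:147725962-147726261 (minus strand) for Flt1, chr11:49609429-49609728 (plus strand) for Flt4 and chr17:46032328-46032627 (minus strand) for the upstream start of Vegfa. Capitals mark the GC box GGGCGG, the core letters bound by SP1, or its reverse complement CCGCCC.
Kdr: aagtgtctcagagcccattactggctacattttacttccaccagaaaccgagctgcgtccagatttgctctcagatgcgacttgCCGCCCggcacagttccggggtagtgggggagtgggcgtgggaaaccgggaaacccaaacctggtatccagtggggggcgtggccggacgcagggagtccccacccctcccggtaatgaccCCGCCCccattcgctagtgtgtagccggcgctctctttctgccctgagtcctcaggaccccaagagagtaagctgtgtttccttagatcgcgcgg
Flt1: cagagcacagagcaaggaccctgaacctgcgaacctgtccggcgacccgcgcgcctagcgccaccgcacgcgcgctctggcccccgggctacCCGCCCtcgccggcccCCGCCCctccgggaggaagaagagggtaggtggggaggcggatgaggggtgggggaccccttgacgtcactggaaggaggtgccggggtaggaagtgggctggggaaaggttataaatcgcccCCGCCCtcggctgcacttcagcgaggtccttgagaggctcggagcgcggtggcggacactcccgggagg
Flt4: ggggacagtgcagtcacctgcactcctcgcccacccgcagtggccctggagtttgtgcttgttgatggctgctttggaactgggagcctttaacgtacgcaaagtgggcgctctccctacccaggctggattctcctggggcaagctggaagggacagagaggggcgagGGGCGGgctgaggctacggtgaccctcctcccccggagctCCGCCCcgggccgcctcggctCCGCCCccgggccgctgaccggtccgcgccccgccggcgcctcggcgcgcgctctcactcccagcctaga
Vegfa: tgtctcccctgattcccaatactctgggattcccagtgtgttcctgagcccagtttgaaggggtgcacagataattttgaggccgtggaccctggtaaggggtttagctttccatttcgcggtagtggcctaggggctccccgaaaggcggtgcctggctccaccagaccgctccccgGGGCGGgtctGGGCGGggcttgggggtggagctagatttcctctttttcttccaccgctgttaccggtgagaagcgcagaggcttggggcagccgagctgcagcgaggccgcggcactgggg

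Windows were found for 7 of the 10 genes, with none for Pecam1, Cdh5 and Vwf. Vegfa and Pgf had more than 1 window, which gave 9 in all. The GC box on either strand stood in 7 of the 9 windows, against 35.7% of 32851 windows of the same length. These belonged to 6 of the 7 genes (all but Tek). The ETS core CCGGAA, named for a family of transcription factors that act in endothelial cells, was found in 1 of the 9 windows (Kdr), against 14.9% of all windows. The TATA box TATAAA was found in 1 of the 9 (Flt1), against 13.6% of all windows. ACGTG, the core of the hypoxia response element, was found in 1 of the 9 (the downstream of the Vegfa windows), against 19.6%. These are matches of letters on both strands. The absence of a match says only that the letters are not in this window.

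The libraries held between 13760669 and 25178942 counts, and the 10 genes between 11 counts (Pgf in control 3) and 1024 counts (Pecam1 in control 1) in a mouse. Levels are given as read counts scaled to a common library total with TMM factors (CPM). The prostate's own genes were present in all 8 libraries, with summed CPM of 9 prostate epithelial markers from 11342 to 248450. Libraries differed in tissue content. Of these markers, Sbp ran from 1547 CPM in control 1 to 225760 CPM in control 69. Spink1 ran from 137 CPM in etanercept 17 to 18140 CPM in control 69. Pbsn, in contrast, was highest in control 1 (9172 CPM) and lowest in control 69 (1094 CPM). Control 3 had the highest summed CPM of 8 mice for adipocyte markers (483, against 0.815 to 213 in the other mice), skeletal muscle markers (1672.5, against 67.7 to 1311), macrophage markers (757, against 189 to 392) and B cell markers (294, against 31.8 to 134). Etanercept 17 had a summed CPM of 87860 for 6 seminal vesicle markers, against at most 3566 in any other mouse. Spearman's rho, across genes, between a mouse's deviation from the mean and exon length was −0.159 to −0.0113 in control and 0.064 to 0.154 in treated mice. With this length trend removed, the log2 fold changes of Flt1 and Vwf described below were −0.88 and −0.87. Each gene is also described without the mouse on which its value depends most.

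**Figure D1:**
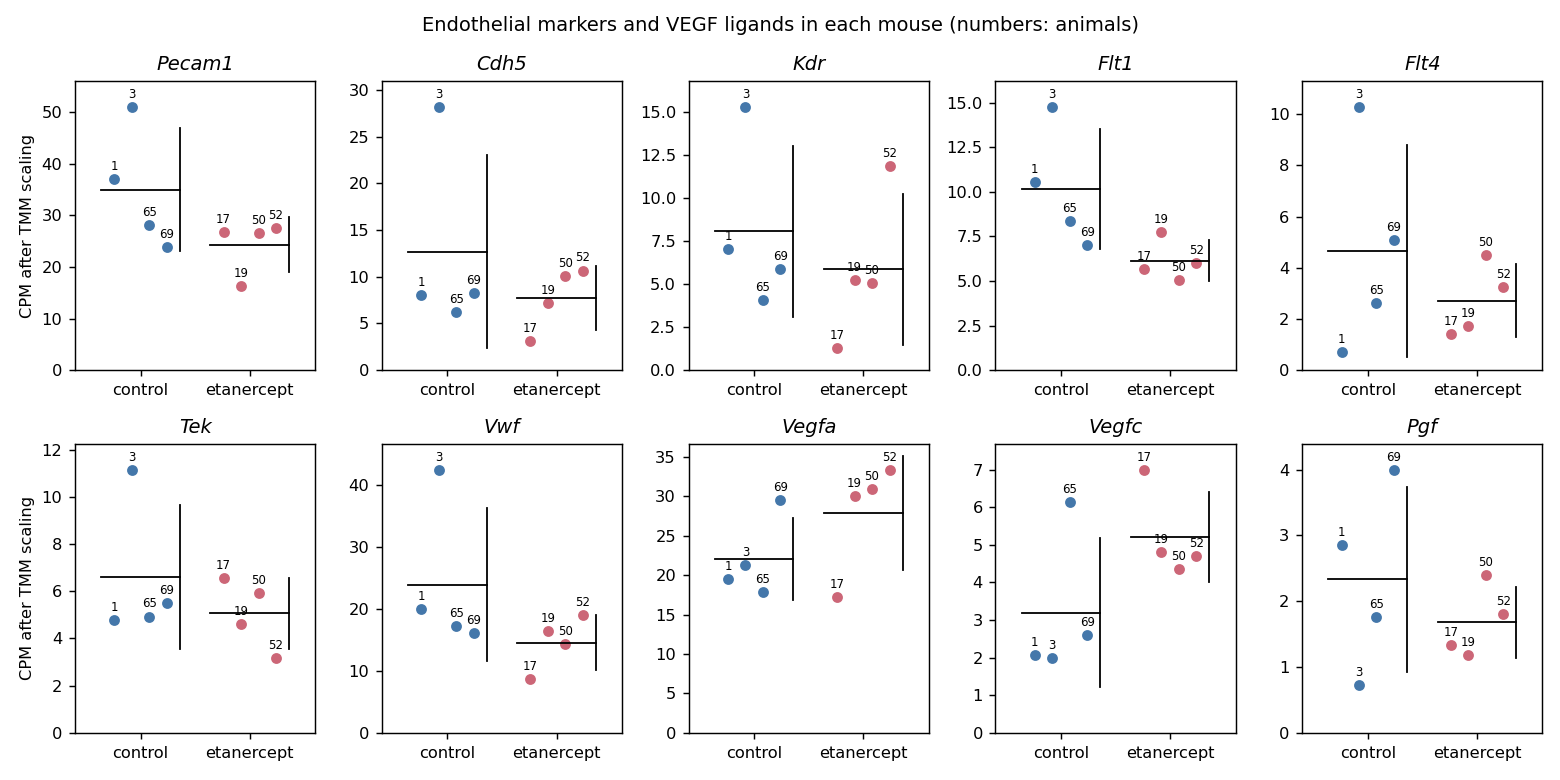
Level of each of the 10 genes in CPM (vertical axis) in the 4 control and the 4 etanercept-treated mice; each point is a mouse, the horizontal line the mean and the vertical bar the SD. The groups overlap in every gene, and control 3 is the highest of the 8 mice in all 7 endothelial genes.

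Among the VEGF receptors, Kdr (chr5:75932827-75978458, minus strand) encodes VEGFR2, the main signalling receptor for VEGF-A. Its level was 7.01, 15.3, 4.09 and 5.90 CPM in controls 1, 3, 65 and 69, and 1.28, 5.24, 5.08 and 11.8 CPM in etanercept-treated mice 17, 19, 50 and 52. Control 3 was highest and etanercept 52 next, and etanercept 17 was lowest with 22 counts. The means were 8.07 ± 4.95 and 5.86 ± 4.39 CPM (SD, n = 4 per group). The log2 fold change was −0.46 (SE 0.64, 95% interval −1.89 to 0.97, edgeR adjusted p = 0.952), and it turned to 0.045 without control 3 and was −1.07 without etanercept 52.

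Flt1 (chr5:147561604-147726011, minus strand) encodes VEGFR1, which binds VEGF-A and PlGF and in its soluble form acts as a decoy. The control mice had 10.6, 14.7, 8.38 and 7.003 CPM, and the treated mice 5.65, 7.75, 5.08 and 6.03 CPM in the order given above. Only etanercept 19 exceeded the lowest control mouse, so the groups overlapped by this mouse. The means were 10.2 ± 3.38 and 6.13 ± 1.15 CPM, and the log2 fold change of −0.73 (SE 0.33, 95% interval −1.47 to 0.0093) had the smallest p of the 10 genes, with an edgeR p of 0.0524 before and 0.743 after adjustment. DESeq2 gave an unadjusted p of 0.0356 and an adjusted p of 0.622. Without control 3 the log2 fold change was −0.50.

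Flt4 (chr11:49609263-49652739, plus strand) encodes VEGFR3, the receptor of VEGF-C. It had 0.723, 10.3, 2.61 and 5.09 CPM in the control mice and 1.40, 1.71, 4.48 and 3.26 CPM in the treated mice. Both the lowest and the highest value belonged to control mice. The log2 fold change was −0.78 (SE 0.76, 95% interval −2.49 to 0.93, edgeR adjusted p = 0.911), the widest interval of the 7 endothelial genes, and −0.054 without control 3.

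Tek (chr4:94739289-94874976, plus strand) encodes TIE2, the angiopoietin receptor that keeps vessels quiescent. Control mice had 4.77, 11.1, 4.93 and 5.498 CPM and treated mice 6.58, 4.60, 5.92 and 3.19 CPM. Apart from control 3 all values lay between 3.19 and 6.58 CPM, with control and treated mice intermixed. The log2 fold change was −0.37 (SE 0.42, 95% interval −1.31 to 0.57, edgeR adjusted p = 0.931) and −0.0025 without control 3.

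Of the junction and clotting genes, Pecam1 (chr11:106654217-106750628, minus strand) encodes CD31, an adhesion molecule of endothelial junctions that leukocytes and platelets also carry. It had 37.0, 50.9, 28.1 and 23.9 CPM in the control mice and 26.7, 16.4, 26.6 and 27.5 CPM in the treated mice. Controls 1, 3 and 65 were above every treated mouse, and control 69 was below 3 of them. The means were 35.0 ± 11.96 and 24.3 ± 5.31 CPM, with a log2 fold change of −0.53 (SE 0.27, 95% interval −1.14 to 0.087, edgeR adjusted p = 0.782). It was −0.29 without control 3 and −0.38 without etanercept 19, the lowest mouse. The summed platelet markers were 5.24 to 15.003 CPM in control and 7.07 to 10.9 CPM in treated mice, and the pan-leukocyte markers 233 to 610 and 218 to 403 CPM, both with their highest value in control 3. Their part in the Pecam1 values was not tested.

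Cdh5 (chr8:104101625-104144511, plus strand) encodes VE-cadherin, the adherens junction cadherin of endothelium. It had 8.03, 28.1, 6.27 and 8.28 CPM in the control mice and 3.15, 7.17, 10.04 and 10.7 CPM in the treated mice. Etanercept 50 and 52 were above every control mouse but control 3, whose value stood far above all others. The log2 fold change was −0.71 (SE 0.56, 95% interval −1.96 to 0.54, edgeR adjusted p = 0.869), and it turned to 0.043 without control 3.

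Vwf (chr6:125546774-125686679, plus strand) encodes von Willebrand factor, which endothelium stores and releases to bind platelets. It had 20.03, 42.5, 17.3 and 16.1 CPM in the control mice and 8.68, 16.4, 14.3 and 18.99 CPM in the treated mice. Control 3 was again the highest and etanercept 17 the lowest, and the other 6 mice lay between 14.3 and 20.03 CPM. The means were 24.0 ± 12.4 and 14.6 ± 4.39 CPM, with a log2 fold change of −0.72 (SE 0.37, 95% interval −1.54 to 0.11, edgeR adjusted p = 0.776). Without control 3 it was −0.29.

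**Figure D2:**
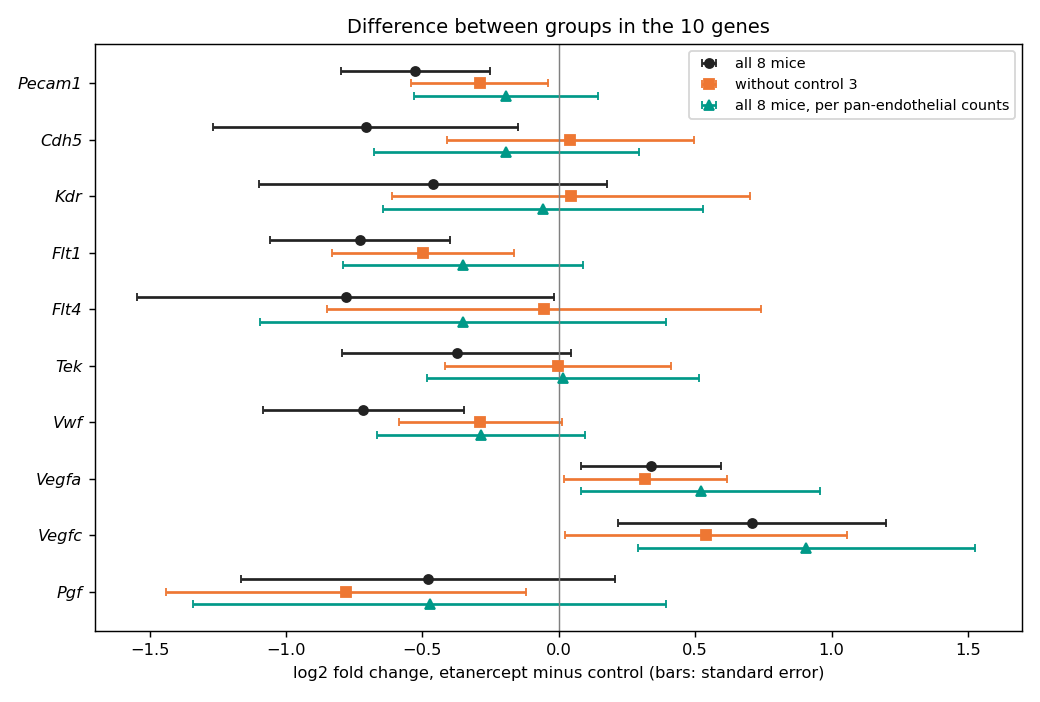
Log2 fold change of each gene (horizontal axis, etanercept against control; bars are standard errors) in all 8 mice, without control 3, and in all 8 mice per pan-endothelial counts. Without control 3 the value of Cdh5 is 0.043 and that of Kdr 0.045, while Flt1 stays at −0.50.

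Of the 3 ligands, Vegfa and Vegfc had positive log2 fold changes and Pgf a negative one, and with all mice 0 of these passed a test. Vegfa (chr17:46016993-46032369, minus strand), the main angiogenic and hypoxia-inducible ligand, had 19.5, 21.3, 17.9 and 29.5 CPM in the control mice and 17.2, 30.0, 30.9 and 33.3 CPM in the treated mice. Treated mice 19, 50 and 52 were above every control mouse, and etanercept 17, the library with the seminal vesicle transcripts, was the lowest of the 8. The means were 22.0 ± 5.18 and 27.9 ± 7.25 CPM, and the log2 fold change was 0.34 (SE 0.26, 95% interval −0.24 to 0.91, edgeR adjusted p = 0.863). Without etanercept 17 it was 0.51, with an edgeR p of 0.0423 before and 0.716 after adjustment, and 2.86% of all genes were higher at an unadjusted p of 0.05 in that fit. The prostate epithelial marker Sbp had 1547, 63887, 15637 and 225760 CPM in the control mice. In the treated mice it had 1618, 174100, 180220 and 55954 CPM. Control 69 was highest of the controls, and etanercept 17 lowest of the treated mice, in both Vegfa and Sbp. Etanercept 52 had the most Vegfa but less Sbp than control 3. The part of epithelial content in the Vegfa values was not tested.

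Vegfc (chr8:54077606-54187096, plus strand) encodes the lymphangiogenic ligand. It had 2.06, 2.00, 6.13 and 2.605 CPM in the control mice and 6.99, 4.81, 4.36 and 4.71 CPM in the treated mice. All treated mice were above controls 1, 3 and 69, and control 65 was above all treated mice but etanercept 17. The means were 3.20 ± 1.97 and 5.22 ± 1.20 CPM, with a log2 fold change of 0.71 (SE 0.49, 95% interval −0.39 to 1.81, edgeR adjusted p = 0.846). Without control 65 it was 1.21, with an edgeR p of 0.0306 before and 0.999 after adjustment, and 1.73% of all genes were higher at an unadjusted p of 0.05 in that fit. Without control 3 and etanercept 17 together it was 0.37.

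Pgf (chr12:85166635-85177790, minus strand) encodes PlGF, the VEGFR1 ligand. It had 2.86, 0.733, 1.76 and 3.99 CPM in the control mice and 1.34, 1.18, 2.39 and 1.80 CPM in the treated mice. Control 3, the highest mouse of the endothelial genes, was here the lowest. The log2 fold change was −0.48 (SE 0.68, 95% interval −2.01 to 1.05, edgeR adjusted p = 0.954) and ran from −0.78 without control 3 to −0.092 without control 69.

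Levels can be compared between genes after division by the summed exon length (FPKM). Vegfa had a mean of 5.82 ± 1.54 FPKM (SD) over the 8 mice and Pecam1 one of 4.76 ± 1.65 FPKM, and Vegfa exceeded Pecam1 in 4 of 8 mice. In treated mice Pecam1 averaged 3.90 ± 0.852 and Vegfa 6.501 ± 1.69 FPKM. In control mice these means were 5.62 ± 1.92 and 5.14 ± 1.21 FPKM, with Pecam1 above Vegfa in controls 1, 3 and 65 and below it in control 69. Pecam1 exceeded the next gene, Cdh5 (2.43 ± 1.81 FPKM), in 8 of 8 mice. Below these came Vegfc at 1.72 ± 0.758, Tek at 1.24 ± 0.503 and Vwf at 1.201 ± 0.622 FPKM. Cdh5 exceeded Vegfc in 5 of 8 mice, Vegfc exceeded Tek in 5 and Tek exceeded Vwf in 3. In treated mice the mean of Vegfc (2.13 FPKM) was above that of Cdh5 (1.85 FPKM). In control mice the mean of Vwf (1.49 FPKM) was above that of Tek (1.40 FPKM). Vwf exceeded Kdr (0.771 ± 0.497 FPKM) in 7 of 8 mice. Kdr, Pgf (0.691 ± 0.361), Flt1 (0.604 ± 0.236) and Flt4 (0.449 ± 0.371 FPKM) were lowest, and of these neighbours each exceeded the next in between 3 and 5 of 8 mice. The order within this lower group, and from Cdh5 down to Vwf, was therefore not resolved given the spread between mice.

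The ligand was set against its receptors in each mouse by the ratio of their FPKM values. The ratio of Vegfa to the sum of Kdr and Flt1 was 2.91, 1.78, 3.89 and 5.88 in the control mice (median 3.40) and 7.16, 6.06, 7.68 and 4.42 in the treated mice (median 6.61). Treated mice 17, 19 and 50 were above every control mouse, and etanercept 52 was below control 69. In etanercept 17 this ratio was high with the lowest Vegfa level of all mice, where Kdr was also at its lowest. The ratio of Vegfc to Flt4 was 9.58, 0.655, 7.90 and 1.72 in the control and 16.8, 9.45, 3.27 and 4.86 in the treated mice, and control mice spanned most of that range. Pgf to Flt1 had medians of 1.12 and 1.25 and overlapped throughout. Counts of Flt1 do not separate its soluble decoy form from the membrane receptor. The ratio of Kdr to Flt1 was 0.994, 1.55, 0.729 and 1.26 in the control mice. In the treated mice it ran from 0.339 in etanercept 17 to 2.94 in etanercept 52. The treated mice thus held both extremes. These ratios are descriptions without a test.

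**Figure D3:**
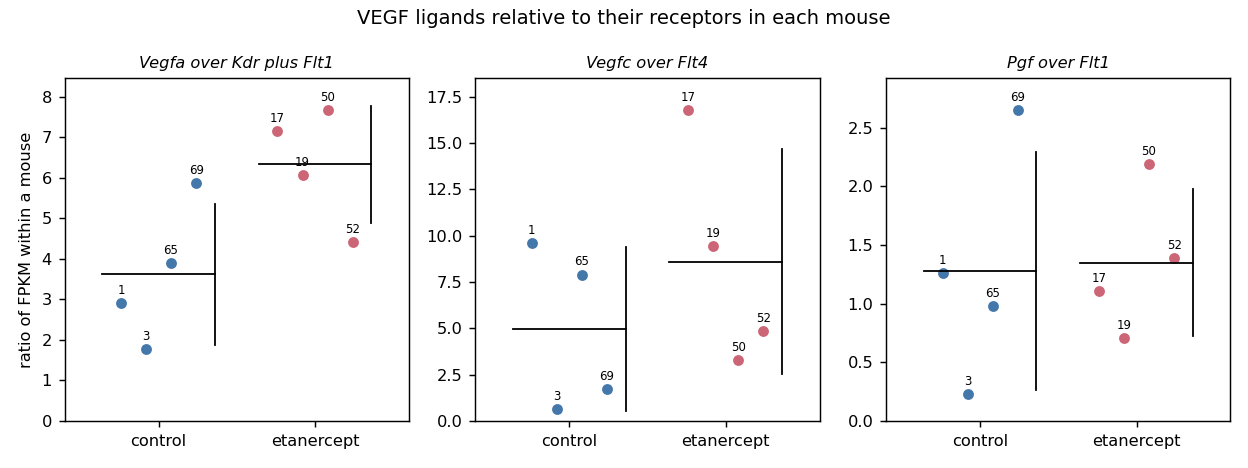
Ratios of FPKM values of ligands and receptors (vertical axis) in each control and etanercept-treated mouse; points are mice, horizontal lines means and vertical bars SD. For Vegfa to Kdr plus Flt1, etanercept 17, 19 and 50 lie above all control mice and etanercept 52 does not.

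To compare the genes within the endothelial transcripts of a library, counts were also scaled to the summed counts of 20 other pan-endothelial genes, such as Emcn, Eng and Cldn5. These 20 held between 2068 and 4875 counts per mouse. On this scale the median log2 fold change of all tested genes was 0.23, and 0 of the 10 genes passed an adjusted or an unadjusted p of 0.05 in edgeR, against 0% of all tested genes after adjustment and 2.38% higher and 0.465% lower before it. Pecam1 was at 187 ± 32.8 per 1000 pan-endothelial counts in control and 163 ± 21.4 in treated mice (SD, n = 4 per group), with a log2 fold change of −0.19 (SE 0.34). Flt1 was at −0.35 (SE 0.44), Vwf at −0.28 (SE 0.38), Kdr at −0.058 (SE 0.58) and Tek at 0.016 (SE 0.50). All of these lay below the median of all genes on this scale. Vegfa was at 134 ± 78.5 and 192 ± 57.1 per 1000 pan-endothelial counts, with a log2 fold change of 0.52 (SE 0.44), and Vegfc at 19.1 ± 12.8 and 35.6 ± 7.93, with 0.91 (SE 0.62). Both lay above that median. Pgf lay below it, at 15.9 ± 13.2 and 11.4 ± 3.49 per 1000 pan-endothelial counts, with −0.47 (SE 0.87). Leaving out single mice gave values from 0.29 (without control 3) to 0.99 (without control 69, with an edgeR p of 0.0236 before and 0.278 after adjustment) for Vegfa and from 0.61 (without control 3) to 1.41 (without control 65) for Vegfc. With all mice, the adjusted p of each of the 10 genes was 0.999 in edgeR.

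The 7 endothelial genes varied together across mice. Pearson's r of log2(CPM + 1) over the 8 mice, given as a description of libraries that share depth and scaling, was positive in 21 of 21 pairs, with a median of 0.597. It was highest for Cdh5 with Vwf (0.93), Cdh5 with Kdr (0.908) and Kdr with Vwf (0.891), and lowest for Kdr with Tek (0.0855). Without control 3, 13 of 21 pairs were positive and the median was 0.0619. The summed CPM of the 7 genes was 173 in control 3, between 71.6 and 88.2 in the other controls, and between 53.5 and 81.5 in the treated mice. Leaving out control 3, the values of the groups thus stood closer together, with etanercept 17 and 19 lowest. Vegfc was negatively correlated with 7 of 7 endothelial genes (median r −0.682), and without control 3 with 5 of 7. Pgf was negatively correlated with 7 of 7 in all mice (median −0.271) and positively with 7 of 7 without control 3 (median 0.364). Vegfa had positive values with 4 of 7 (median 0.0456), and with 4 of 7 without control 3 (median 0.358).

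**Figure D4:**
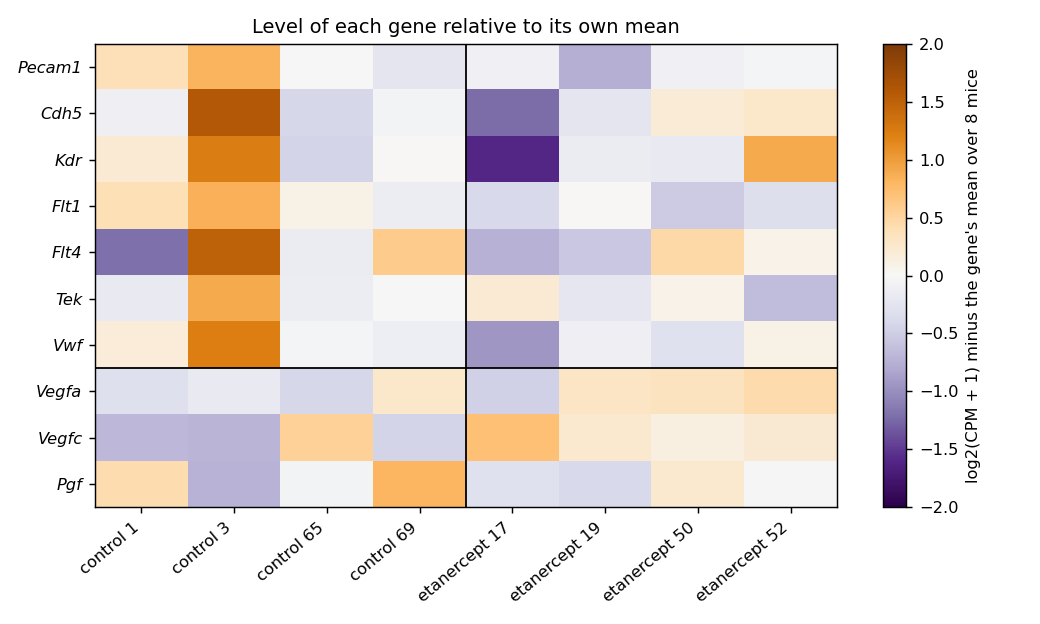
Level of each of the 10 genes (rows) in each mouse (columns) as log2(CPM + 1) minus the gene's mean over the 8 mice (colour scale, orange above and purple below the mean). Control 3 is above the mean in all 7 endothelial genes and below it in Pgf, and etanercept 17 is the lowest mouse for Cdh5, Kdr and Vwf.

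Among all other tested genes, the 5 whose log2(CPM + 1) was most like the mean z-score of the 7 endothelial genes over the 8 mice were Nek8 (r = 0.977), Ncapg2 (0.975), Retnla (0.974), Scarf1 (0.962), a scavenger receptor first described in endothelial cells, and Srl (0.953), a sarcoplasmic reticulum protein of muscle. That mean z-score was 1.85 in control 3 and lowest, at −0.91, in etanercept 17. The 5 genes were the top of all genes and are given without a test. Without control 3 their r was between 0.768 for Scarf1 and 0.98 for Ncapg2. Of the 20 pan-endothelial genes, 19 were positively correlated with this mean (median r 0.439, against 0.0145 over all tested genes), and 11 without control 3 (median 0.0431). The genes most like Vegfa were Vamp7 (0.981), Appbp2 (0.980) and Atp5f1 (0.971), those most like Vegfc were Panct2 (0.955), Stx17 (0.953) and Camsap3 (0.945), and those most like Pgf were Hccs (0.955), Nptx1 (0.933) and Nudt14 (0.926).

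The wider vascular lists held 88 genes, of which 83 were tested. In edgeR 0 of the 83 passed after adjustment, and DESeq2 gave 0 as well. At an unadjusted p of 0.05 DESeq2 had 0 higher and 9 lower, against 5.84% of its 23393 genes in either direction. In edgeR at that threshold, 0 were higher and 7 were lower in etanercept-treated mice, against 2.99% and 3.63% of all tested genes, and the median log2 fold change was −0.052. The 7 were Cldn5, Cd93, Plvap, Cd36, Hes1, Pdgfrb and Ankrd37, each with an edgeR adjusted p between 0.739 and 0.743. Without control 3, 3 of the 7 remained at this p, namely Hes1, Pdgfrb and Ankrd37, and 0 others were lower. Angpt4 (1.19) and Hif1a (0.62), a subunit of the hypoxia-inducible factor, were then higher at this p. In that fit 2.86% of all tested genes were higher and 3.03% lower. The sign of the log2 fold change turned in 42 of the 83 genes when single mice were left out, in 17 without control 3 and in 36 without some other mouse. The values given below for genes near 0, such as Vegfb, Angpt1, Emcn, Gja4, Ephb4, Notch1, Pgk1 and Ldha, are among these.

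Of the pan-endothelial list 15 of 20 genes had negative log2 fold changes (median −0.23), and 8 of 20 without control 3 (median 0.23). Cldn5, a tight junction claudin, was at −0.88 (SE 0.33), Cd93, a lectin-like receptor of sprouting endothelium, at −0.94 (SE 0.38), and Plvap, a protein of endothelial fenestrae, at −0.98 (SE 0.43). Their values without control 3 were −0.50, −0.44 and −0.52. Emcn, Esam and Eng, a sialomucin, a junction molecule and the TGF-beta coreceptor endoglin, had −0.021, −0.57 and −0.31, and without control 3 0.18, −0.62 and −0.025. With all mice 5 of the 20 genes had positive values, between 0.15 and 0.60.

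Of 5 capillary genes, 5 were negative with a median of −1.31, and without control 3 again 5, with a median of −0.32. Cd36, the fatty acid transporter of capillaries, which adipocytes and macrophages also express, was at −1.87 (SE 0.70), and at −0.49 without control 3. Car4 had −1.31 (SE 1.68), Rgcc −1.38 (SE 0.99) and Gpihbp1, the capillary anchor of lipoprotein lipase, −0.78 (SE 0.66). Without control 3 these were −0.069, −1.15 and −0.32. The summed adipocyte markers were 32.1 to 483 CPM in control and 0.815 to 20.5 CPM in treated mice, without overlap, and Cd36 was highest with them in control 3; the part of fat tissue in these values was not tested. The arterial genes Gja5, Gja4 and Efnb2 were at −0.28, −0.042 and −0.25 and their list at a median of −0.042 (5 of 6 tested), or 0.21 without control 3, where Gja4 turned to 0.32. Efnb2 ran from −0.79 without etanercept 17 to 0.054 without etanercept 50. The venous genes Nr2f2, Ephb4 and Ackr1 were at 0.29, 0.019 and −0.74, and at 0.11, −0.21 and −0.41 without control 1. Among lymphatic genes, Lyve1, a hyaluronan receptor also found on macrophages, was at −1.24 (SE 0.70), while Prox1, the transcription factor of lymphatic identity, was at −0.052 and Pdpn at −0.054. Without control 3 these were −0.52, 1.45 and 0.17. None of the arterial, venous or lymphatic genes had an unadjusted p of 0.05 or less in edgeR.

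Hes1, a target of Notch signalling in many cell types, had 146, 84.9, 87.0 and 98.9 CPM in the control mice and 37.1, 69.2, 60.0 and 71.5 CPM in the treated mice. Every treated mouse was below every control mouse. Its log2 fold change was −0.81 (SE 0.25), with an unadjusted p of 0.00993 in edgeR, and −0.90 without control 3. The Notch ligands Dll4 and Jag1 were at 0.30 and −0.37, and Notch1 at 0.054, and without control 3 at 0.82, −0.42 and −0.075. Dll4 turned to −0.11 without etanercept 52. Pdgfrb, the receptor by which pericytes are recruited and which fibroblasts also carry, had 12.6, 14.9, 15.5 and 10.9 CPM in the control mice and 7.51, 7.86, 4.90 and 9.35 CPM in the treated mice. These groups did not overlap either, and the log2 fold change was −0.86 (SE 0.29), and −0.81 without control 3. Of the vascular lists, Esam, Cldn5, Cd93, Rgcc and Ankrd37 also had every treated mouse below every control mouse. Over all tested genes this held for 2.53%. The pericyte genes Rgs5 and Cspg4 were at −0.44 and 0.27, and without control 3 at −0.18 and 0.35. Cspg4 was at −0.0071 without etanercept 52. The summed fibroblast markers overlapped, with 373 to 922 CPM in control and 475 to 851 CPM in treated mice.

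Of the other VEGF ligands and coreceptors, Vegfb was at 53.6 CPM in control and 55.4 CPM in treated mice on average (log2 fold change 0.047), Vegfd at 10.2 and 6.18 CPM (−0.73) and Nrp1 at 0.30. Without control 3 they were at −0.071, −0.11 and 0.64. The angiopoietins Angpt1, Angpt2 and Angpt4, ligands of TIE2, were at 0.054, 0.45 and 0.61, and without control 3 at 0.24, 0.49 and 1.19. Angpt1 turned to −0.20 without etanercept 17. Angpt2 was at 0.13 without etanercept 50, and Angpt4 at 0.27 without etanercept 52. With all mice neither list had a gene at an unadjusted p of 0.05 or less in edgeR. Of the adhesion molecules that TNF induces, Vcam1 averaged 27.5 CPM in control and 21.2 CPM in treated mice (−0.38, SE 0.45), Icam1 14.8 and 10.9 CPM (−0.45, SE 0.30), and Selp was at 0.93 (SE 1.12). Without control 3 Vcam1 turned to 0.23, Icam1 was at −0.31 and Selp at 1.78. Selp turned to −0.057 without etanercept 17, the mouse with its highest level. Sele had too few counts to be tested. The hypoxia list had 9 of 12 genes with positive values (median 0.13). Slc2a1, the glucose transporter GLUT1, was at 0.44 (SE 0.20), and the glycolytic genes Pgk1 and Ldha at −0.018 and −0.0060, while Ankrd37, a HIF1 target, was at −1.37 (SE 0.56). The angiogenesis inhibitors Thbs1, Thbs2 and Vash1 were at −0.55, 0.13 and 0.86, with standard errors from 0.49 to 1.34. Thbs1 turned to 0.21 without control 3, where Thbs2 was at 0.91 and Vash1 at 0.50. Vash1 was at 4.46 without control 1, which had 7.48 CPM, while the other controls had at most 0.267 CPM. The vascular lists did not share a direction.

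**Figure D5:**
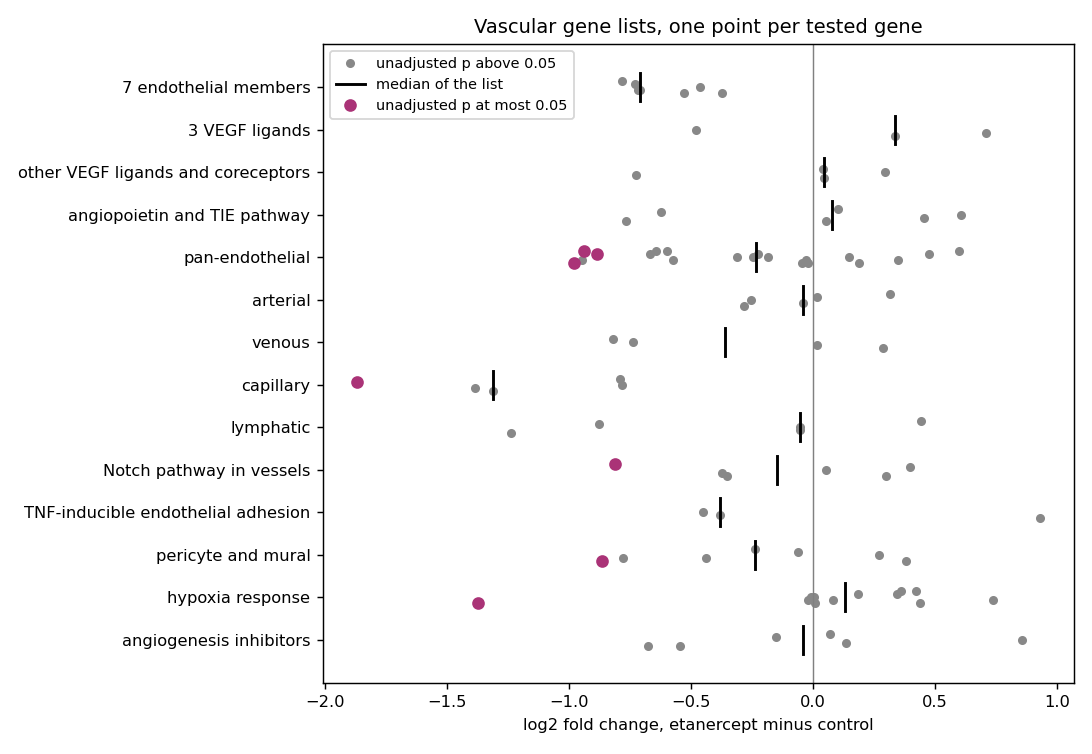
Log2 fold change (horizontal axis, etanercept against control) of each tested gene of the vascular lists; points are genes, larger coloured points those with an unadjusted edgeR p up to 0.05, and black lines list medians. The 7 coloured points all lie on the lower side, and the capillary list has the lowest median, −1.31, which is −0.32 without control 3.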

How the data were processed

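Poly(A) RNA of 8 frozen prostates was sequenced as paired reads of 150 nt. Per the labels and the submitters' processing notes, the authors used fastp, STAR 2.6.1d and featureCounts 1.5.0-p3 with mm10 and deposited raw counts per gene and mouse, which they tested with DESeq2 1.26.0. The annotation and the strand setting of the counting are not given in the sources used here. No exon of the 10 genes overlaps an exon of another gene in GENCODE M21, which gave names, positions and exon lengths. Of 54532 identifiers, 37 were not in it and held 0.00429% of counts.

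Etanercept-treated and control mice, grouped by their labels, were compared with the quasi-likelihood test of edgeR 4.0.16 under R 4.3.3, after TMM scaling and filterByExpr (minimum count 10), with Benjamini-Hochberg adjustment over 15472 genes and a threshold of 0.05. The script was tested on simulated data. The common dispersion was 0.3 (biological coefficient of variation 0.547). A p-value sets the difference between groups against a dispersion estimated from the 4 mice of each group and moderated over genes. Depth was 13760669 to 25178942 counts per mouse. CPM are TMM-scaled, and FPKM divide them by exon length. The relative comparison replaced library sizes by pan-endothelial counts. Alternatives were a fit in DESeq2 1.42.0, scaling by upper quartile, by RLE, by library totals or by TMM leaving out the 50 most abundant genes, other filters, a robust fit, removal of length or GC trends, a block by animal number and leaving out each mouse.

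The genes, lists and tests were chosen with earlier results of these data known. Besides the 10 genes, the text names the first 3 genes of each vascular list, any others at or under 0.05 before adjustment, and the genes most like the 10. Icam1, Hif1a, Sbp, Spink1 and Pbsn were named outside this rule after their values were seen. The labels name no batch.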

Additional observations from a re-analysis of the deposited data

Results flagged for a closer look

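In 6 of 20 sets of 4 mice (10 genes in each group), 1 mouse lay so far from the other 3 that its gap to the nearest, divided by the range of the group, passed Dixon's critical value for 4 samples; chance alone flags about 1 in 20 such sets. Control 3 was such a mouse on the high side for Cdh5 (28.1 CPM, gap over range 0.908), Tek (11.1 CPM, 0.886) and Vwf (42.5 CPM, 0.852). It also had the highest summed adipocyte, skeletal muscle, macrophage and B cell markers, whose part in these values was not tested. Pecam1 stood apart on the low side in etanercept 19 (16.4 CPM, 0.919). Vegfc stood apart on the high side in control 65 (6.13 CPM, 0.854) and in etanercept 17 (6.99 CPM, 0.8291).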

How the results depend on the processing

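In 433 comparisons of single genes with an alternative the direction stayed, and in 17 it turned. These include the fits of the 10 genes relative to pan-endothelial counts. They also include the 7 vascular genes at or under 0.05 before adjustment, picked for their p in these data. Those 7 kept their direction under every alternative, so the tally is no measure of stability over the vascular lists. The side of the adjusted p threshold is no sign of stability here, since the smallest adjusted p was 0.739 with all mice. Of 83 listed vascular genes, 46 changed sign under at least 1 alternative. The 7 endothelial genes were negative in 7 of 7 under every alternative except without control 3 (5 of 7) and, chosen after seeing the data, without control 3 and etanercept 17 together (4 of 7, median −0.10). Low counts limit Pgf, with 11 counts in control 3. The causes of the changes below were not tested.

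The count of genes called was 0 in edgeR and 21 in DESeq2. The number of the 10 genes at or under 0.05 before adjustment was 0 in edgeR with all mice, 1 (Flt1) with RLE factors, upper-quartile factors, library size alone, at least 10 counts in every mouse or DESeq2, 2 (Flt1 and Vwf) with the length trend removed, and 0 to 3 when single mice were left out, the 3 being Pecam1, Flt1 and Vwf without control 69. Listed vascular genes higher at that p went from 0 to 1 with library size alone or the GC trend removed, to 2 without control 3 and etanercept 17 together, and 0 to 2 when single mice were left out. Those lower went from 7 to 4 with the length trend removed and to 4 without that pair of mice, and ranged from 2 (without etanercept 52) to 9 when single mice were left out, with 3 without control 3, without etanercept 19 or without etanercept 50.

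Leaving out single mice gave log2 fold changes from −0.95 to 0.043 for Cdh5 and from −1.07 to 0.045 for Kdr. Without control 3 and etanercept 17 together the values were 0.30 for Cdh5, 0.38 for Kdr and 0.17 for Flt4. Relative to pan-endothelial counts, Cdh5 turned to 0.035 without control 3 and 0.078 without etanercept 17, and Kdr to 0.017 without control 3, 0.044 without control 69 and 0.28 without etanercept 17. Without control 69, Flt4 turned to 0.099 and Pgf to 0.18. Tek, at 0.016 in all mice, was −0.055, −0.061, −0.092, −0.018 and −0.065 without control 1, control 65, etanercept 17, etanercept 19 and etanercept 50. Over single mice left out, the ranges on this scale were −0.37 to 0.078 for Cdh5, −0.51 to 0.28 for Kdr, −0.72 to 0.099 for Flt4, −0.092 to 0.22 for Tek and −0.84 to 0.18 for Pgf. No paired analysis was possible because the groups share no animal number.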

Other observations

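Markers of other cell types, named after their values were seen, are set here against 2.99% of all tested genes higher and 3.63% lower in etanercept-treated mice at an unadjusted p of 0.05 in edgeR (2.86% and 3.03% without control 3). Of 6 smooth muscle markers 4 were higher (Acta2 at a log2 fold change of 0.77, Tagln at 0.75, Cnn1 at 1.35 and Actg2 at 1.35), and 4 without control 3. Of 5 T cell markers 3 were lower (Cd3e at −1.05, Cd3g at −1.09 and Cd8a at −1.63), and 2 without control 3. Of 6 macrophage markers 3 were lower (C1qa at −1.18, C1qb at −0.86 and Cd68 at −0.79), and 1 without control 3, where these genes were at −0.77, −0.40 and −0.37. Of 4 basal epithelial markers 2 were lower (Trp63 at −0.61 and Krt15 at −0.60), and 0 without control 3, where they were at −0.56 and −0.52. Of 5 tested adipocyte markers 4 were lower (Adipoq at −3.46, Retn at −7.07, Plin1 at −3.31 and Cfd at −4.48). Without control 3 the last 3 remained so, and Adipoq, at −2.47, was no longer at this p. Of 4 tested skeletal muscle markers 1 was lower, Tnnt3 at −4.98, which turned to 1.65 without control 3. Markers at this p without control 3 but not with all mice were Acta1 of skeletal muscle (1.84) and the pan-leukocyte gene Ptprc (0.84), both higher, and Krt8 (−0.48) and Krt18 (−0.64) of the prostate epithelium, both lower. None of these passed adjustment in edgeR with all mice, and in DESeq2 the adipocyte gene Retn alone of all listed markers did, with an adjusted p of 3.31e-05.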
